A study of Mus musculus with 12 samples.

Results

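The genes of DNA replication were followed in mouse mammary organoids treated with CHIR99021, an inhibitor of the kinase GSK3 that stabilises β-catenin and so switches on the WNT pathway. The set holds 37 genes chosen by symbol from the 25210 genes of the count table, and all 37 were found and passed the filter on low counts that left 15316 genes. They comprise the MCM helicase, the factors that load and activate it, the sliding clamp and its loader, the polymerases and primase, enzymes of nucleotide supply, Okazaki fragment maturation, single-strand binding, the transcription factor E2f1 and the uracil glycosylase Ung. Organoids are small three-dimensional pieces of epithelium. These were prepared from the mammary glands of virgin female FVB/N mice aged 8 to 11 weeks and were embedded in growth-factor reduced matrigel. They were kept for 7 days in minimal medium with the solvent DMSO or with CHIR99021 at 1, 1.5 or 3 µM. Each of 3 cultures, made from 3 animals, received all 4 treatments, which gives 12 bulk RNA libraries and 3 per group. No transgene or deletion is named for any group. The library titles also carry a tag (med, min or max) that belongs to culture 1, 2 or 3 at every dose. Its meaning is not given in the sources used here, and culture and tag cannot be told apart.

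DNA replication begins in G1, when the origin recognition complex, Cdc6 and Cdt1 load the ring of Mcm2 to Mcm7 onto DNA in an inactive form, while geminin (Gmnn) later blocks Cdt1 so that no origin is loaded again. At the start of S phase Cdc45 and the GINS complex join the ring and turn it into the working helicase, after which primase, the polymerases, the clamp Pcna and its loader copy the strands. Many of these genes are targets of E2F transcription factors, which the retinoblastoma family of pocket proteins holds in check until a cell commits to division. In the mammary gland, epithelial division is low in the adult virgin and rises with hormones and growth signals.

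Library totals ran from 10129264 to 24485855 counts, and the scaling factors of the libraries from 0.844 to 1.08. Markers of cells other than epithelium were present, and their summed levels were lower at the higher doses. Summed over a list of 5 adipocyte genes, levels were 3375 to 8990 CPM (counts scaled to a common library total) in the DMSO libraries, 1003 to 3554 at 1 µM, 145 to 1273 at 1.5 µM and 36.2 to 237 at 3 µM. A list of 8 fibroblast genes summed to 1635 to 20572 CPM in DMSO and 187 to 4623 CPM at 3 µM, with culture 3 highest at every dose, and edgeR called 0 of the 8 at 3 µM (0 at an unadjusted p under 0.05, 2 lower in DESeq2 and 6 lower with culture as a block). The log2 fold change was negative for 7 of the 8 and 0.44 for Dcn. Dcn stood at 38.7, 219 and 625 CPM in DMSO and 13.9, 115 and 1071 CPM at 3 µM. Fbln1 stood at 11.2, 19.9 and 64.0 CPM in DMSO and 11.8, 17.1 and 54.0 CPM at 3 µM. The 6 endothelial genes summed to 258 to 529 CPM in DMSO and 29.1 to 90.1 CPM at 3 µM, and the macrophage and leukocyte genes, of which 7 of 8 were found, to 247 to 2443 and 38.0 to 115 CPM, with the lymphocyte genes Cd3e and Cd79a near 0 in all libraries. The 8 epithelial genes summed to 3332 to 5752 CPM in DMSO and 16411 to 33158 CPM at 3 µM. That rise lay in Krt5 and Krt14, since the other 6 summed to 1934 to 3087 CPM in DMSO and 2138 to 2389 CPM at 3 µM. Among the 8 the basal keratins Krt14 and Krt5 were called higher (3.84 and 3.42 on the log2 scale) and the luminal keratins Krt8 and Krt18 lower (−0.75 and −0.48). Cldn7 was also called higher, and Epcam, Cdh1 and Elf3 were not called. The part these shifts play in the values below was not tested.

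The promoters of the set were read for the letters that E2F factors and their partners bind. RefSeq windows (GRCm38.p6, 250 bases before to 50 after a gene's start) were held for 29 of the 37 genes, with 33 windows in all. The E2F words TTTCCCGC, TTTCGCGC, TTTGCCGC and TTTGGCGC, read on both strands and counted also where they overlap each other, were found in 12 of the 33 windows (36.4%), against 744 of 32851 mouse promoters (2.26%). The CCAAT box (CCAAT, both strands), bound by NF-Y, was in 19 windows (57.6%, against 37.4% of all promoters). The cell cycle homology element, searched as TTTGAA on both strands, was in 4 (12.1%, against 17.9%). The 5 stretches below are shown because they hold the spread of arrangements found, from clustered E2F words to none in the gene that rose most. Each is 160 bases upstream of the RefSeq start, written 5′ to 3′ on the gene's own strand, and capitals mark E2F words and CCAAT boxes.
Mcm5 (chr8:75109349-75109508, plus strand): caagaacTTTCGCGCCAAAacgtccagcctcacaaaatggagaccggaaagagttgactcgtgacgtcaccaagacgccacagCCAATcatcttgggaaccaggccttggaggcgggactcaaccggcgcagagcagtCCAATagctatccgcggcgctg
Mcm6 (chr1:128359706-128359865, minus strand): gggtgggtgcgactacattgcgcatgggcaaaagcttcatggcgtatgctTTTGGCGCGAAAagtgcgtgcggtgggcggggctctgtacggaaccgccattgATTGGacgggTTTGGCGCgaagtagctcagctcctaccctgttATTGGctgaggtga
Pola1 (chrX:93632156-93632315, minus strand): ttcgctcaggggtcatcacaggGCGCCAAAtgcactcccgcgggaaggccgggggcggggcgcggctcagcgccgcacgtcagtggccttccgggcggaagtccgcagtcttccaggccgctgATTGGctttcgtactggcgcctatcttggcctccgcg
Cdc6 (chr11:98907991-98908150, plus strand): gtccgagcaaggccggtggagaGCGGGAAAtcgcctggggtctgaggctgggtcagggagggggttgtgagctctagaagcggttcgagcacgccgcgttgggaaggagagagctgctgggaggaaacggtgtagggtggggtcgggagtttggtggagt
Rrm2 (chr12:24708094-24708253, plus strand): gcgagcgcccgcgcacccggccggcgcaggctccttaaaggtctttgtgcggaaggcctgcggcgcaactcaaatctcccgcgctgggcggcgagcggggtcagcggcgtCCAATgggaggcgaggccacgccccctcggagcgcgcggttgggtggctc
Mcm5 and Mcm6 each carry a pair of E2F words that overlap on opposite strands, and Mcm6 holds a further one next to a CCAAT box. Pola1 has 1 E2F word and 1 CCAAT box, while Cdc6 shows a single E2F word and no CCAAT box. The Rrm2 stretch has 1 CCAAT box and no exact E2F word. In the GENCODE M21 annotation the Mcm5, Mcm6 and Pola1 stretches lie before their genes, that of Cdc6 lies in an intron of a longer transcript of the same gene, and the last 13 bases of the Rrm2 stretch lie in an annotated exon. A match here is a match of letters and not a measured binding site.

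None of the replication genes passed the test at 1 µM, and most rose at 1.5 and 3 µM. At 1 µM, 0 of the 37 were called in either direction (adjusted p under 0.05, edgeR's quasi-likelihood test), where 0.242% of all genes tested were called. An unadjusted p under 0.05 was reached by 2 of the 37, Gins2 and Pold1 (named after their values were seen), against 11.7% of all genes. DESeq2 and the model with culture as a block also called 0 of the 37, where they called 485 and 859 of 15316 genes. At 1.5 µM, 31 were higher and 0 lower, against 15.4% of all genes called higher and 11.8% called lower. At 3 µM, 35 were higher and 0 lower, against 29.9% and 27.7% of all genes. The median log2 fold change over the 37 was 0.16 at 1 µM, 1.18 at 1.5 µM and 1.77 at 3 µM, which are ratios of 1.12, 2.26 and 3.42. Over all genes tested the medians were −0.00, −0.00 and −0.03. The comparisons share the DMSO libraries and are not independent of each other. In bulk RNA, more cells in S phase and more of these transcripts per cell cannot be told apart. The adipocyte list already had a median log2 fold change of −1.20 at 1 µM, where edgeR called 0 of its 5 genes (0 at an unadjusted p under 0.05, 0 in DESeq2 and 1 lower with culture as a block), and all 5 were lower than DMSO in each culture. The part of such shifts in the replication genes was not tested.

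All 3 libraries at 1.5 µM lay above all 3 DMSO libraries for 36 of the 37 genes (24.9% of all genes tested), and the same held for 36 at 3 µM (30.9%). The exception at both doses was Gins4. At 1 µM the groups were apart in the upward direction for 7 genes, where 11.2% of all genes were. Gins4 alone of the 37 had all 3 libraries below DMSO, and the share of all genes in that direction was not counted.

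**Figure D1:**
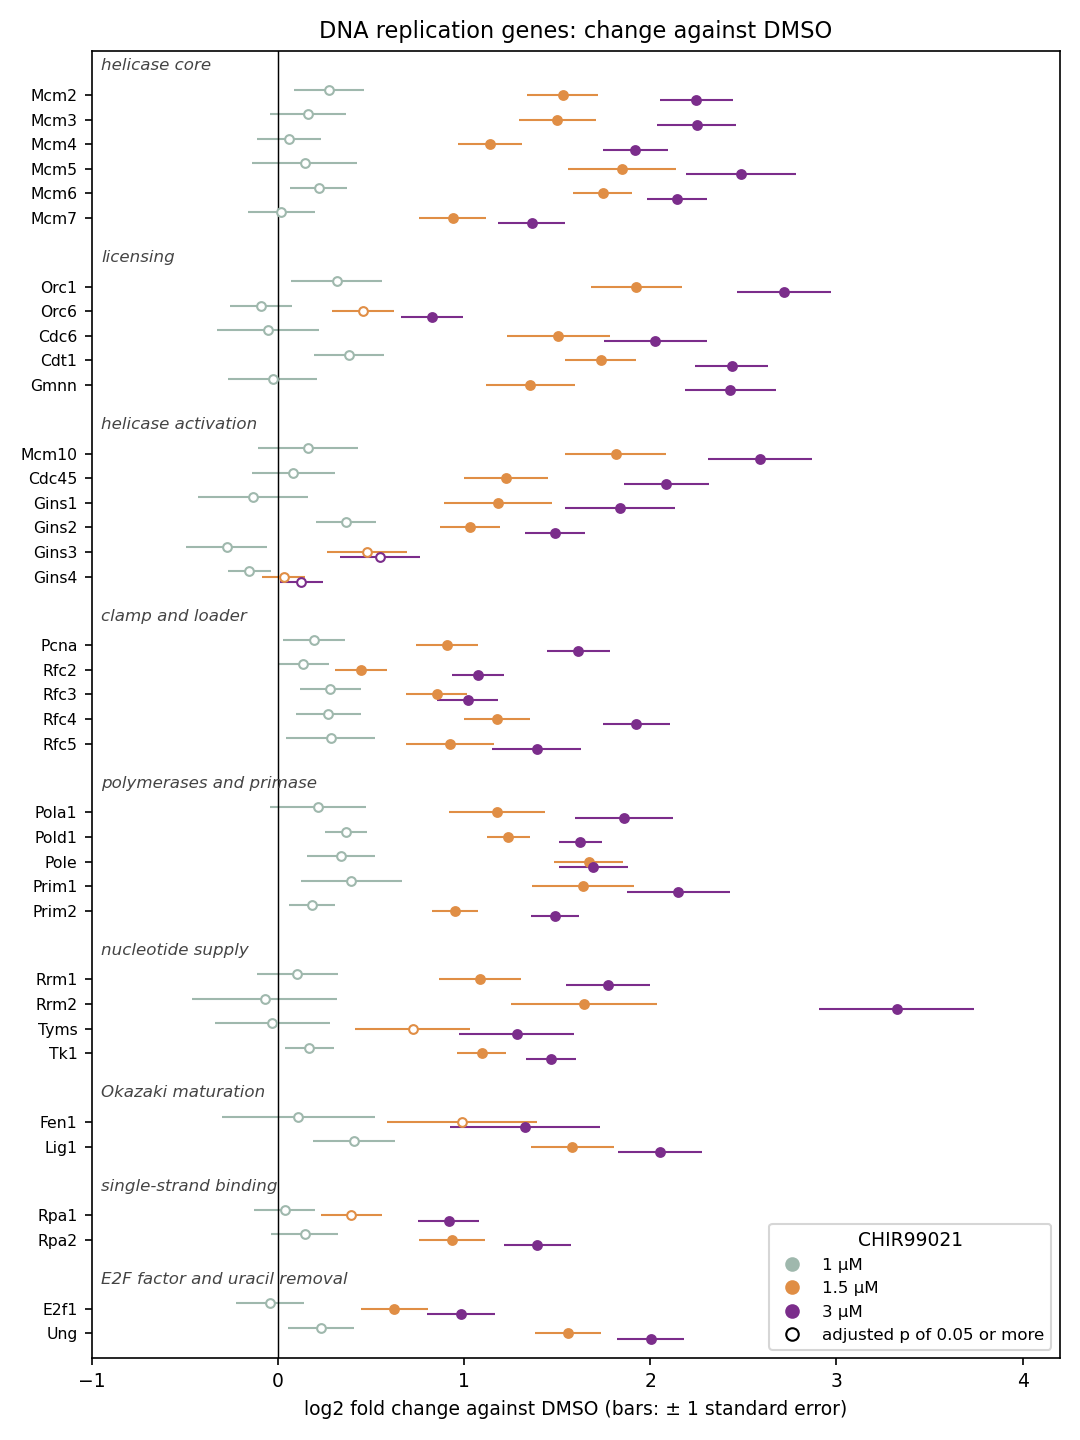
Log2 fold change against DMSO (horizontal axis) for each of the 37 genes, grouped by role, at 1, 1.5 and 3 µM CHIR99021. Points are fitted values, bars are 1 standard error, and open points did not pass an adjusted p of 0.05. All 37 points at 1 µM are open, 31 at 1.5 µM and 35 at 3 µM are filled, and Rrm2 lies furthest right at 3.32.

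The 6 subunits of the MCM helicase, the ring that unwinds DNA ahead of the fork, all rose at 1.5 and 3 µM. Mcm5 changed most at 3 µM and Mcm7 least. Mcm5 (ENSMUSG00000005410, chromosome 8, 75109528 to 75128439) stood at 26.0, 19.5 and 19.4 CPM in the DMSO libraries of cultures 1, 2 and 3, at 23.2, 24.3 and 24.4 CPM at 1 µM, 87.1, 78.5 and 68.6 CPM at 1.5 µM and 143, 159 and 63.4 CPM at 3 µM. The libraries at 1.5 and 3 µM were all above those of DMSO, and culture 3 was lower at 3 µM than at 1.5 µM. Its log2 fold change was 1.85 ± 0.29 (SE, adjusted p = 0.00171) at 1.5 µM and 2.49 ± 0.29 (SE, adjusted p = 7.58e-05) at 3 µM. Mcm7 (ENSMUSG00000029730, chromosome 5, 138164583 to 138172422) stood at 53.1, 42.4 and 43.0 CPM in DMSO, 46.6, 46.4 and 47.2 CPM at 1 µM, 96.3, 85.8 and 83.8 CPM at 1.5 µM and 136, 139 and 81.4 CPM at 3 µM. Its levels at 1 µM fell within the DMSO range, and those at 1.5 and 3 µM were above it. The log2 fold changes were 0.94 ± 0.18 (SE, adjusted p = 0.00449) and 1.36 ± 0.18 (SE, adjusted p = 0.000154). Mcm2, Mcm3, Mcm4 and Mcm6 rose by 2.25, 2.25, 1.92 and 2.14 on the log2 scale at 3 µM. Per kilobase of exon, levels of the 6 subunits ran from 3.25 (Mcm2) to 10.4 (Mcm7) CPM per kb in DMSO and from 15.5 (Mcm2) to 37.7 (Mcm4) at 3 µM, so that Mcm7 was no longer the highest.

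Of the licensing genes, which prepare origins in G1, 4 of 5 were called at 1.5 µM and all 5 at 3 µM. Orc1, the largest subunit of the origin recognition complex and the one that varies through the cell cycle, changed most. Orc1 (ENSMUSG00000028587, chromosome 4, 108579423 to 108614833) stood at 2.27, 1.73 and 1.89 CPM in DMSO, 2.49, 2.87 and 1.99 CPM at 1 µM, 9.04, 5.92 and 7.59 CPM at 1.5 µM and 13.6, 15.3 and 10.1 CPM at 3 µM. It was scarce in DMSO, with 17 counts in the lowest library, and every library at 3 µM was above every library at 1.5 µM. In the fit, its log2 fold change was 1.92 ± 0.25 (SE, adjusted p = 0.000680) at 1.5 µM and 2.72 ± 0.25 (SE, adjusted p = 1.60e-05) at 3 µM. Orc6, a subunit of the same complex, changed least. Orc6 (ENSMUSG00000031697, chromosome 8, 85299632 to 85308278) stood at 13.6, 17.0 and 15.3 CPM in DMSO, 14.5, 14.0 and 14.5 CPM at 1 µM, 25.1, 18.4 and 19.4 CPM at 1.5 µM and 31.8, 28.0 and 21.7 CPM at 3 µM. At 1.5 µM its log2 fold change was 0.45 ± 0.17 (SE, adjusted p = 0.0656), and the gene passed with culture as a block (adjusted p = 0.0435). At 3 µM the value was 0.83 ± 0.17 (SE, adjusted p = 0.00185). The loading factors Cdc6 and Cdt1 rose by 2.03 and 2.44 at 3 µM on the log2 scale. Geminin, the inhibitor of Cdt1, rose as well, by 2.43 ± 0.25 (SE).

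Of the genes that turn the loaded ring into a helicase, 4 of 6 were called at 1.5 µM and at 3 µM. Mcm10, which is needed to fire the assembled helicase, and Cdc45 rose, and so did Gins1 and Gins2, while Gins3 and Gins4 were not called against DMSO. Mcm10 (ENSMUSG00000026669, chromosome 2, 4989714 to 5012791) stood at 3.73, 3.96 and 4.42 CPM in DMSO, 4.11, 4.78 and 4.66 CPM at 1 µM, 16.7, 12.8 and 13.1 CPM at 1.5 µM and 30.1, 29.1 and 13.7 CPM at 3 µM. Its log2 fold change was 1.81 ± 0.27 (SE, adjusted p = 0.00139) at 1.5 µM and 2.59 ± 0.28 (SE, adjusted p = 3.98e-05) at 3 µM. In culture 3 the levels at 1.5 and 3 µM were close to each other, whereas in cultures 1 and 2 the level at 3 µM was the higher. Cdc45 rose by 2.08, Gins1 by 1.84 and Gins2 by 1.49 at 3 µM. The call of Gins1 at 1.5 µM was lost without the DMSO library of culture 3, the 1.5 µM library of culture 1, culture 1 or culture 2 (adjusted p from 0.0509 to 0.156). Exons of Gins2 share 67.3% of their bases with Gse1 and another gene on the opposite strand, and whether counting used the strand is not given in the sources used here, so its counts are uncertain.

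GINS is a complex of 4 different subunits in equal parts. Gins4 (ENSMUSG00000031546, chromosome 8, 23226610 to 23237668) stood at 19.95, 22.2 and 19.3 CPM in DMSO, 18.8, 17.5 and 18.9 CPM at 1 µM, 19.7, 22.7 and 20.3 CPM at 1.5 µM and 22.7, 24.8 and 19.5 CPM at 3 µM. All of its 12 libraries lay between 17.5 and 24.8 CPM, and the 3 µM libraries overlapped DMSO. Against DMSO the log2 change was 0.03 ± 0.12 (SE, adjusted p = 0.870) at 1.5 µM and 0.12 ± 0.12 (SE, adjusted p = 0.379) at 3 µM, with a 95% interval from −0.13 to 0.38. Scaled by library size alone the value at 3 µM was −0.08, so its sign is not settled. Gins3 (ENSMUSG00000031669, chromosome 8, 95633559 to 95645059) stood at 4.80, 5.08 and 3.99 CPM in DMSO, 3.61, 3.56 and 4.26 CPM at 1 µM, 7.00, 5.34 and 6.95 CPM at 1.5 µM and 8.00, 7.12 and 5.11 CPM at 3 µM. Its libraries at 3 µM were above those of DMSO by a small margin. The fitted log2 change was 0.48 ± 0.21 (SE, adjusted p = 0.124) at 1.5 µM and 0.55 ± 0.22 (SE, adjusted p = 0.0503) at 3 µM, and at 3 µM it passed with the block (adjusted p = 0.0405) and in DESeq2 (0.0468). The promoter window of Gins3 holds an E2F word (GCGGGAAA on its own strand, 41 bases before the start). Per kilobase of exon, Gins4 stood at 15.2 ± 1.13 CPM per kb in DMSO (SD, n = 3), against 1.88 ± 0.0654 for Gins1, 1.37 ± 0.0739 for Gins2 and 1.71 ± 0.209 for Gins3. At 3 µM the levels per kilobase were 16.5 ± 1.99 for Gins4, 6.718 ± 2.503 for Gins1, 3.86 ± 0.680 for Gins2 and 2.49 ± 0.547 for Gins3. The ratio of Gins1 to Gins4 in CPM rose from 0.139 ± 0.00571 in DMSO to 0.447 ± 0.120 at 3 µM, with every library at 3 µM above every DMSO library.

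The clamp Pcna, a ring that holds the polymerases on DNA, and the 4 small loader subunits in the set, Rfc2 to Rfc5, were all called at 1.5 and 3 µM. Pcna was the member with the highest mean level per kilobase at 3 µM, 57.6 ± 14.6 CPM per kb (SD, n = 3), up from 18.8 ± 1.67 in DMSO. Rrm2 lay within that spread at 3 µM, at 54.5 ± 28.0 CPM per kb. The log2 fold change of Pcna at 3 µM was 1.61 ± 0.17 (SE). Rfc4, the loader subunit that changed most (ENSMUSG00000022881, chromosome 16, 23113943 to 23127737), stood at 7.598, 7.72 and 6.89 CPM in DMSO, 9.55, 8.19 and 9.03 CPM at 1 µM, 17.4, 16.8 and 16.0 CPM at 1.5 µM and 32.0, 32.3 and 20.01 CPM at 3 µM. Each dose from 1.5 µM on was clear of the one before. Its log2 change against DMSO was 1.18 ± 0.18 (SE, adjusted p = 0.00139) at 1.5 µM and 1.93 ± 0.18 (SE, adjusted p = 1.71e-05) at 3 µM. Rfc3 changed least at 3 µM (ENSMUSG00000033970, chromosome 5, 151642756 to 151651242), with 15.3, 11.8 and 12.6 CPM in DMSO, 18.03, 15.4 and 14.8 CPM at 1 µM, 25.3, 24.6 and 22.02 CPM at 1.5 µM and 28.9, 30.7 and 20.9 CPM at 3 µM. Its libraries at 1.5 and 3 µM overlapped. As a log2 fold change this was 0.85 ± 0.16 (SE, adjusted p = 0.00456) at 1.5 µM and 1.02 ± 0.17 (SE, adjusted p = 0.000505) at 3 µM. Rfc2 and Rfc5 rose by 1.08 and 1.39 at 3 µM. The call of Rfc2 at 1.5 µM (log2 fold change 0.44 ± 0.14 SE, adjusted p = 0.0368) was lost in 14 of the alternative settings, up to an adjusted p of 0.219. That of Rfc5 was lost in 5, among them those without the DMSO library of culture 2 or 3 or the 1.5 µM library of culture 1 (adjusted p up to 0.156).

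The catalytic subunits of the polymerases and both primase subunits were all called at 1.5 and 3 µM. Prim1, the catalytic primase subunit that lays down RNA primers, changed most (ENSMUSG00000025395, chromosome 10, 128015168 to 128030037). It stood at 10.1, 9.34 and 11.4 CPM in DMSO, 14.7, 14.7 and 11.2 CPM at 1 µM, 33.6, 32.0 and 30.7 CPM at 1.5 µM and 52.0, 60.4 and 24.8 CPM at 3 µM. Culture 3 was lower at 3 µM than at 1.5 µM, and the other two cultures were higher. In the fit, its log2 fold change was 1.64 ± 0.27 (SE, adjusted p = 0.00235) at 1.5 µM and 2.15 ± 0.28 (SE, adjusted p = 0.000127) at 3 µM. Prim2, its partner and the large primase subunit, changed least (ENSMUSG00000026134, chromosome 1, 33453810 to 33669795). It stood at 11.8, 12.8 and 11.5 CPM in DMSO, 12.6, 14.3 and 14.0 CPM at 1 µM, 23.7, 22.9 and 23.1 CPM at 1.5 µM and 34.8, 38.5 and 27.8 CPM at 3 µM. Prim2 varied little within each group up to 1.5 µM, and culture 3 was the lowest at 3 µM. The libraries at 1.5 and 3 µM did not overlap. Against DMSO the log2 change was 0.95 ± 0.13 (SE, adjusted p = 0.000781) at 1.5 µM and 1.49 ± 0.13 (SE, adjusted p = 1.03e-05) at 3 µM. Pola1, which extends the primers, Pold1, the main enzyme of the lagging strand, and Pole, that of the leading strand, rose by 1.86, 1.62 and 1.69 at 3 µM. Pole had reached 1.67 at 1.5 µM, which was 98.5% of its log2 change at 3 µM and the largest such share in the set. This share averages over cultures that differed, since the log2 step of Pole from 1.5 to 3 µM was 0.12, 0.40 and −0.54 in cultures 1, 2 and 3.

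Of the nucleotide supply genes, 3 of 4 were called at 1.5 µM and all 4 at 3 µM. Rrm2, the S-phase subunit of ribonucleotide reductase, which makes deoxyribonucleotides, had the largest change of the whole set (ENSMUSG00000020649, chromosome 12, 24708241 to 24714146). It stood at 17.1, 17.4 and 10.8 CPM in DMSO, 14.6, 17.1 and 11.3 CPM at 1 µM, 54.9, 45.8 and 40.5 CPM at 1.5 µM and 192, 199 and 61.3 CPM at 3 µM. Every library at 3 µM was above every library at 1.5 µM, but culture 3 was far below the others at 3 µM. The fitted log2 change was 1.64 ± 0.39 (SE, adjusted p = 0.0128) at 1.5 µM and 3.32 ± 0.42 (SE, adjusted p = 0.000109) at 3 µM. The call at 1.5 µM was lost without the DMSO library of culture 3, culture 1 or culture 2 (adjusted p from 0.0522 to 0.148). Its partner Rrm1, the large subunit, rose less, by 1.77 ± 0.22 (SE), and the ratio of Rrm2 to Rrm1 in CPM went from 0.223 ± 0.0355 in DMSO to 0.625 ± 0.170 at 3 µM. Tyms, thymidylate synthase, changed least (ENSMUSG00000025747, chromosome 5, 30058202 to 30073617). It stood at 15.3, 17.6 and 16.4 CPM in DMSO, 14.4, 17.6 and 16.1 CPM at 1 µM, 30.0, 27.4 and 23.9 CPM at 1.5 µM and 45.6, 55.4 and 18.7 CPM at 3 µM. Culture 3 at 3 µM was just above the DMSO libraries and below all libraries at 1.5 µM. Its log2 change against DMSO was 0.72 ± 0.31 (SE, adjusted p = 0.108) at 1.5 µM and 1.28 ± 0.31 (SE, adjusted p = 0.00549) at 3 µM, and the second call was lost without culture 1 or culture 2 (adjusted p from 0.0890 to 0.110). Tk1, thymidine kinase of the salvage route, rose by 1.47.

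Okazaki fragments are trimmed by Fen1 and joined by Lig1. Lig1 (ENSMUSG00000056394, chromosome 7, 13277283 to 13311433) stood at 24.1, 17.7 and 19.3 CPM in DMSO, 28.7, 27.6 and 24.997 CPM at 1 µM, 64.8, 61.3 and 57.1 CPM at 1.5 µM and 98.1, 103 and 52.9 CPM at 3 µM, with culture 3 lower at 3 µM than at 1.5 µM. Its log2 fold change was 1.58 ± 0.22 (SE, adjusted p = 0.00109) at 1.5 µM and 2.05 ± 0.23 (SE, adjusted p = 4.78e-05) at 3 µM. At 1 µM Lig1 had the largest fitted value of the 37, 0.41 ± 0.22 (SE, adjusted p = 0.522), which did not pass. Fen1 (ENSMUSG00000024742, chromosome 19, 10199132 to 10204169) was counted at very low levels, 0.800, 0.406 and 0.700 CPM in DMSO, 0.914, 0.682 and 0.511 CPM at 1 µM, 1.40, 1.34 and 1.16 CPM at 1.5 µM and 1.25, 2.57 and 1.104 CPM at 3 µM, or 4 to 40 counts per library. Of its exon bases 84.2% are shared with genes on the opposite strand, Tmem258 among them, so these counts are uncertain. As a log2 fold change this was 0.99 ± 0.40 (SE, adjusted p = 0.0935) at 1.5 µM and 1.33 ± 0.40 (SE, adjusted p = 0.0171) at 3 µM, and the second call was lost in 5 alternative settings (adjusted p up to 0.296).

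Rpa1 and Rpa2 encode subunits of the protein that coats single-stranded DNA. Rpa1 (ENSMUSG00000000751, chromosome 11, 75298166 to 75348324) stood at 54.1, 60.2 and 49.3 CPM in DMSO, 53.0, 58.2 and 56.3 CPM at 1 µM, 72.8, 73.5 and 68.6 CPM at 1.5 µM and 113, 123 and 72.6 CPM at 3 µM. Its log2 fold change was 0.39 ± 0.16 (SE, adjusted p = 0.102) at 1.5 µM, where it passed with the block (adjusted p = 0.0356), and 0.92 ± 0.17 (SE, adjusted p = 0.000996) at 3 µM. The libraries at 1.5 and 3 µM were all above those of DMSO. Rpa2 (ENSMUSG00000028884, chromosome 4, 132768332 to 132778752) stood at 15.8, 12.2 and 14.3 CPM in DMSO, 16.0, 14.9 and 15.9 CPM at 1 µM, 28.3, 26.5 and 26.2 CPM at 1.5 µM and 42.7, 42.4 and 26.1 CPM at 3 µM. Its log2 fold change was 0.94 ± 0.18 (SE, adjusted p = 0.00432) at 1.5 µM and 1.39 ± 0.18 (SE, adjusted p = 0.000124) at 3 µM. For both genes culture 3 at 3 µM lay close to the level at 1.5 µM.

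E2f1 encodes an activating E2F factor, and Ung removes uracil from newly made DNA. E2f1 (ENSMUSG00000027490, chromosome 2, 154559407 to 154569892) stood at 9.998, 15.5 and 13.1 CPM in DMSO, 10.5, 12.9 and 14.0 CPM at 1 µM, 18.3, 19.2 and 21.8 CPM at 1.5 µM and 22.03, 28.3 and 25.7 CPM at 3 µM. Here culture 3 was not the lowest at 3 µM. In the fit, its log2 fold change was 0.62 ± 0.18 (SE, adjusted p = 0.0277) at 1.5 µM, a call lost in 9 alternative settings (adjusted p up to 0.124), and 0.98 ± 0.18 (SE, adjusted p = 0.00112) at 3 µM. Ung (ENSMUSG00000029591, chromosome 5, 114130386 to 114139323) stood at 5.11, 4.47 and 4.58 CPM in DMSO, 5.18, 4.82 and 6.65 CPM at 1 µM, 14.5, 12.0 and 15.4 CPM at 1.5 µM and 21.2, 19.6 and 16.0 CPM at 3 µM. It was clear of DMSO in every library at 1.5 and 3 µM. Against DMSO the log2 change was 1.56 ± 0.18 (SE, adjusted p = 0.000426) at 1.5 µM and 2.001 ± 0.18 (SE, adjusted p = 1.39e-05) at 3 µM.

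**Figure D2:**
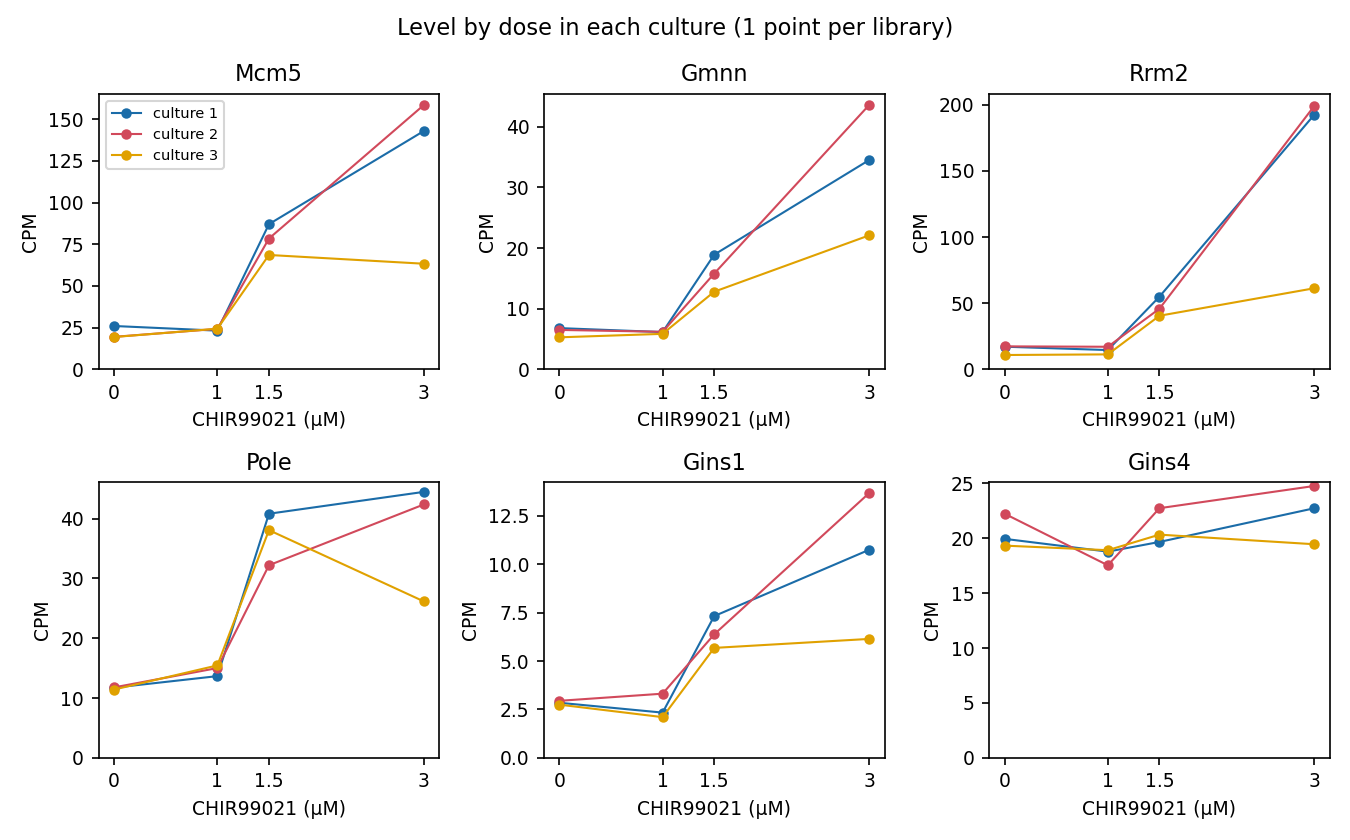
CPM (vertical axes, from 0) against dose of CHIR99021 in µM (horizontal axes) for 6 genes, with 1 point per library and a line per culture. Mcm5, Gmnn, Rrm2 and Gins1 stay low to 1 µM and climb from 1.5 µM. From 1.5 to 3 µM Pole goes up in cultures 1 and 2 and down in culture 3. Gins4 stays between 17.5 and 24.8 CPM, and culture 3 falls behind at 3 µM.

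On the log2 scale, the median step was larger from 1 to 1.5 µM than from 1.5 to 3 µM. Against 1 µM, the libraries at 1.5 µM were higher for all 37 genes without overlap (19.3% of all genes tested), and 26 genes were called higher and 0 lower, where 4.43% of all genes were called higher and 0.992% lower. Between 1.5 and 3 µM, 14 genes were without overlap (23.1% of all genes), and 16 were called higher and 0 lower, where 17% of all genes were called higher and 12.7% lower. The comparison of 3 with 1 µM called 36 genes higher (27.8% of all genes), all but Gins4, which passed with the block (adjusted p = 0.0411). The median log2 change was 0.96 from 1 to 1.5 µM and 0.52 from 1.5 to 3 µM. Within cultures 1, 2 and 3 the median of the first step was 1.12, 0.98 and 0.97. That of the second step was 0.60, 0.90 and 0.08, so that in culture 2 both steps were close. For the 35 genes called at 3 µM, the change reached by 1.5 µM was 41.3% (Rfc2) to 98.5% (Pole) of the log2 change at 3 µM, with a median of 67.2%. The genes with the largest change from 1.5 to 3 µM were Rrm2 (1.68 ± 0.39 SE, adjusted p = 0.0104) and Gmnn (1.08 ± 0.23 SE, adjusted p = 0.00769), and that of Pole was 0.02 ± 0.18 (SE, adjusted p = 0.930). A straight line on dose gave a positive slope that passed for 35 genes (30.2% of all genes), with a median of 0.63 per µM on the log2 scale. The count of 26 from 1 to 1.5 µM fell when some single libraries were left out, and so did the count over all genes. Of the 37 it was 10, 9 or 14 without the 1 µM library of culture 1, 2 or 3. It was 12 or 15 without the 1.5 µM library of culture 1 or 2, and 0 without culture 1 or culture 2 as a whole. Over all genes, 679 were called higher with every library. That number was 161, 117 or 196 without the 1 µM library of culture 1, 2 or 3. It was 153 or 199 without the 1.5 µM library of culture 1 or 2, and 0 without culture 1 or culture 2. At 1.5 µM against DMSO, 18 (without culture 1) or 8 (without culture 2) of the 37 were called. Over all genes 866 or 334 were then called higher, against 2364 with every library.

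From 1.5 to 3 µM the genes climbed further in cultures 1 and 2 than in culture 3. Within culture 1 the level at 3 µM was above that at 1.5 µM for 36 of the 37 genes, with a median log2 difference of 0.60, and within culture 2 for all 37, with a median of 0.90. Within culture 3 it was above for 21 and below for 16, with a median of 0.08, from −0.54 for Pole to 0.79 for Gmnn. At 1 µM the median log2 differences from the culture's own DMSO library were 0.03, 0.18 and 0.24 in cultures 1, 2 and 3, with 22, 28 and 31 of the 37 genes higher. At 1.5 µM these medians were 1.13, 1.12 and 1.17, and at 3 µM they were 1.92, 2.06 and 1.23. Over all genes tested the medians of the step from 1.5 to 3 µM were 0.00, 0.02 and −0.03. The count of 16 genes from 1.5 to 3 µM became 31 without the 3 µM library of culture 3, 29 without culture 3, 0 without culture 1 or culture 2, 8 or 7 without the 3 µM library of culture 1 or 2, and 8 or 9 without the 1.5 µM library of culture 2 or 3. Over all genes, the 2601 called higher became 3322 without the 3 µM library of culture 3 and 2930 without culture 3. They were 608 or 196 without culture 1 or 2. Without the 3 µM library of culture 1 or 2 they were 1973 or 1761, and without the 1.5 µM library of culture 2 or 3, 1758 or 1944. A test of whether the slope on dose differed between cultures, added after these values were seen, called 0 of the 37 genes and 0 of all genes, the lowest adjusted p among the 37 being 0.636. An unadjusted p under 0.05 was reached by 0 of the 37 and by 1230 of all genes, and DESeq2 called 0 of the 37 and 231 of all genes. The fitted slope was lowest in culture 3 for 33 of the 37, with medians of 0.70, 0.73 and 0.45 per µM. At 3 µM the fibroblast list summed to 4623 CPM in culture 3 against 187 and 989 CPM in cultures 1 and 2, while Krt5 and Krt14 together summed to 14022 CPM against 27904 and 30884 CPM in cultures 1 and 2. The other 6 epithelial genes summed to 2389 CPM in culture 3 against 2138 and 2274 CPM. The part of these differences was not tested.

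**Figure D3:**
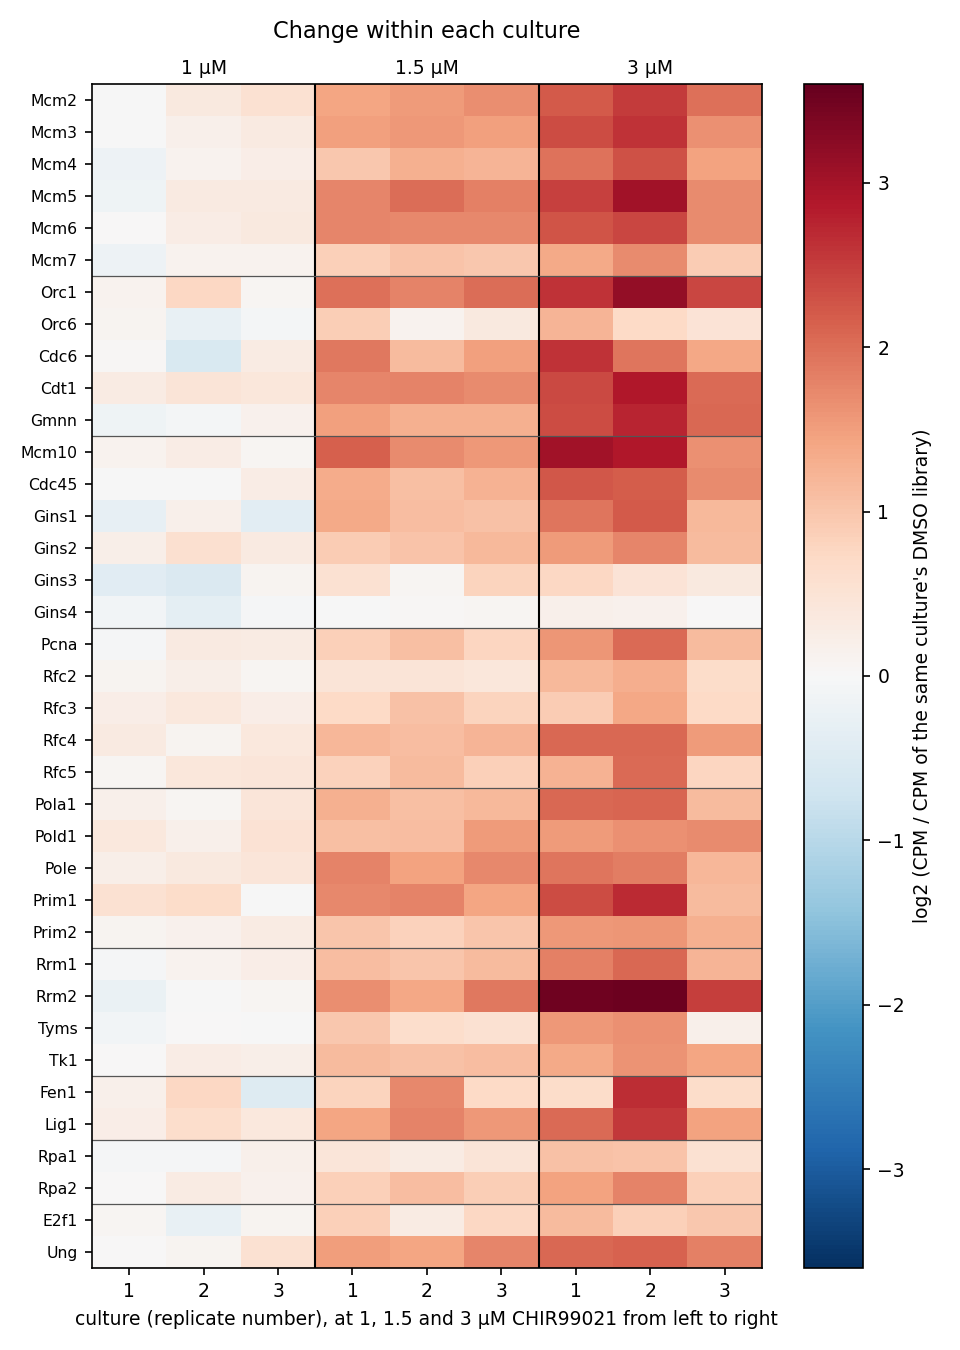
Log2 ratio of each library's CPM to the DMSO library of the same culture (colour, red higher and blue lower) for the 37 genes in rows grouped by role and the 9 treated libraries in columns. The 1 µM columns are near white, and at 3 µM culture 3 is paler than cultures 1 and 2 (medians 1.23, 1.92 and 2.06).

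Several members have a counterpart that does related work outside S phase. The ratio of member to counterpart within a library was higher at 3 µM than in DMSO for each of the 4 pairs named. Rrm2b, the p53-induced form of the small reductase subunit, stood at 26.8, 28.6 and 28.0 CPM in DMSO, 25.7, 24.4 and 26.3 CPM at 1 µM, 21.6, 22.9 and 23.3 CPM at 1.5 µM and 15.7, 16.3 and 19.8 CPM at 3 µM, and it fell (log2 fold change at 3 µM −0.69 ± 0.10 SE, adjusted p = 0.000336). The ratio of Rrm2 to Rrm2b in CPM within a library was 0.544 ± 0.137 in DMSO and 0.566 ± 0.135 at 1 µM (SD, n = 3). It reached 2.097 ± 0.411 at the middle dose of 1.5 µM, and at 3 µM it was 9.19 ± 5.28. The ratio at 3 µM was 12.3 and 12.2 in cultures 1 and 2 and 3.09 in culture 3. Tk2, the mitochondrial thymidine kinase, stood at 27.3, 23.5 and 30.0 CPM in DMSO and 20.5, 18.5 and 21.9 CPM at 3 µM and fell (log2 fold change −0.41 ± 0.13 SE, adjusted p = 0.0207). The ratio of Tk1 to Tk2 went from 0.821 ± 0.154 to 3.00 ± 0.621. Lig3, a ligase of repair and mitochondria, rose from 48.3, 48.4 and 53.3 CPM to 97.1, 97.3 and 96.3 CPM (log2 fold change 0.95 ± 0.06 SE, adjusted p = 3.12e-06), less than Lig1, so that the ratio of Lig1 to Lig3 went from 0.409 ± 0.0782 to 0.872 ± 0.280. Exons of Lig3 share 25.1% of their bases with a gene on the opposite strand. Smug1, a uracil glycosylase of resting and dividing cells, rose from 28.9, 23.3 and 25.5 CPM to 39.4, 39.2 and 35.5 CPM (log2 fold change 0.55 ± 0.13 SE, adjusted p = 0.00439), and the ratio of Ung to Smug1 went from 0.183 ± 0.00820 to 0.496 ± 0.0438. In all 4 pairs every library at 3 µM had a higher ratio than every DMSO library. From 1.5 to 3 µM the ratio fell in culture 3 for Lig1 to Lig3 (0.682 to 0.549) and for Ung to Smug1 (0.548 to 0.451). In cultures 1 and 2 both of these ratios rose over that step. Of the 19 counterparts listed, 9 were higher and 2 lower at 3 µM, with a median log2 fold change of 0.33. Over all genes tested 29.9% were higher and 27.7% lower. The 9 became 4 without culture 2, and the 2 became 1 without culture 1, culture 2, the DMSO library of culture 1 or the 3 µM library of culture 2, and 4 with library size alone as scaling. The 3 with the largest rise were the repair polymerase Polb (1.30), the thymine glycosylase Tdg (1.08) and Lig3. The 17 promoter windows held for 15 of these counterparts had no E2F word, which 2.26% of all promoters hold.

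**Figure D4:**
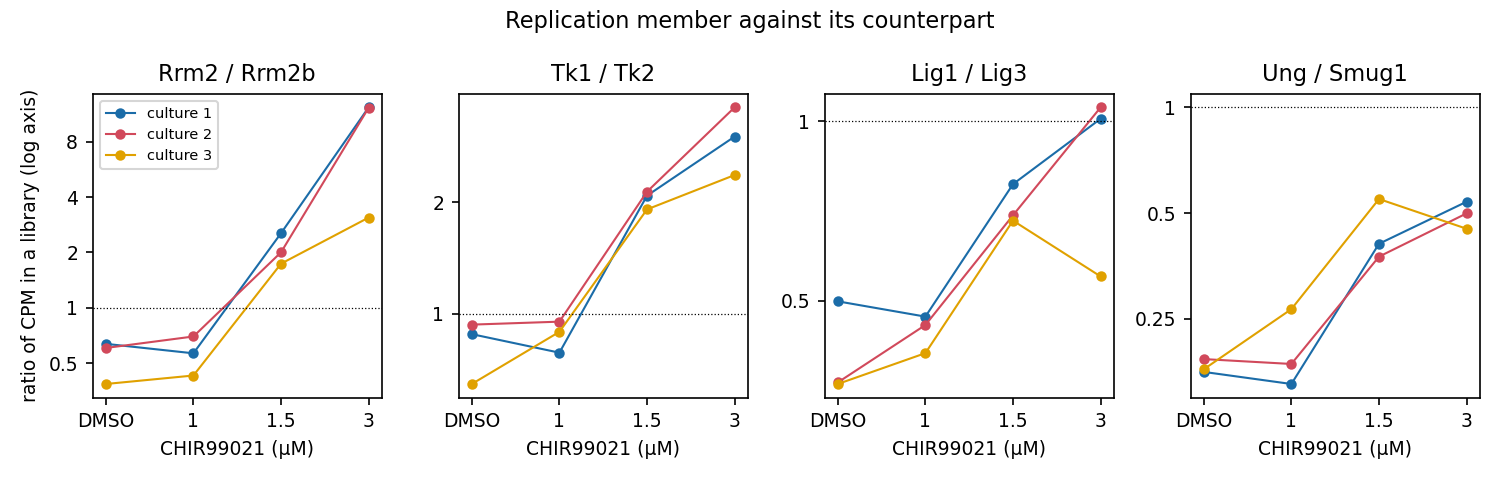
Ratio of CPM within a library (vertical axes, log scale to base 2) of 4 replication genes to their counterparts in DMSO and at 1, 1.5 and 3 µM CHIR99021, with 1 point per library and a line per culture. The dotted line marks a ratio of 1, and Rrm2 over Rrm2b goes from 0.544 in DMSO to 9.19 at 3 µM on average.

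Most other genes of DNA synthesis rose as well. Of 47 further replication genes, all tested, 0 were called at 1 µM, 31 were higher and 0 lower at 1.5 µM, and 41 were higher and 0 lower at 3 µM, with a median log2 fold change of 1.37 at 3 µM, where 15.4% of all genes were higher at 1.5 µM and 29.9% at 3 µM. The 6 not called at 3 µM were Mcm9, Orc3, Orc4, Pold3, Pole4 and Rnaseh2b, named after their values were seen. The count at 1.5 µM was 19 without culture 1 and 8 without culture 2, where 866 and 334 of all genes were called higher. The largest were Uhrf1, which keeps DNA methylation on new strands (2.74 ± 0.27 SE, adjusted p = 2.62e-05), Clspn, a fork protein of the checkpoint (2.51 ± 0.25 SE, adjusted p = 2.46e-05), and the checkpoint kinase Chek1 (2.48 ± 0.23 SE, adjusted p = 1.67e-05). Genes of mitosis had the highest median of the lists. All 18 of them were higher at 1.5 and at 3 µM, with medians of 1.85 and 2.60, and the largest at 3 µM were the ubiquitin-conjugating enzyme Ube2c (3.18), the spindle checkpoint kinase Bub1b (2.95) and cyclin B1, Ccnb1 (2.89). The 18 calls at 1.5 µM became 0 without culture 1 and 3 without culture 2. From 1.5 to 3 µM, 3 of the 18 were called higher, where 17% of all genes were. In culture 3 this step went from 38.1 to 29.3 CPM for Bub1b, 29.0 to 24.6 for Ccnb1 and 24.8 to 26.1 for Ube2c. In cultures 1 and 2 these named genes rose over the same step. Exons of Ube2c share 22.8% of their bases with Tnnc2 on the opposite strand. Of 15 windows of mitosis genes, 6.67% held an E2F word, 93.3% a CCAAT box and 73.3% the cell cycle homology element, against 36.4%, 57.6% and 12.1% of the replication windows.

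Of 17 E2F factors and pocket proteins, 7 were higher and 3 lower at 1.5 µM, against 15.4% and 11.8% of all genes. At 3 µM 10 were higher and 3 lower, against 29.9% and 27.7%. The 7 became 2 or 0 without culture 1 or 2 and 4 without the DMSO library of culture 2, the 3 lower at 1.5 µM became 1 without culture 1, culture 2, the DMSO library of culture 3 or the 1.5 µM library of culture 2, and the 10 became 6 without culture 2. The largest rises were in E2f8 and E2f7, atypical factors that repress E2F targets, and in Mybl2, a partner of the complex that drives mitotic genes. E2f8 stood at 5.42, 5.38 and 3.50 CPM in DMSO and 50.2, 46.5 and 24.2 CPM at 3 µM (log2 fold change 3.08 ± 0.31 SE, adjusted p = 2.90e-05), Mybl2 changed by 2.78 and E2f7 by 2.27. The 3 that fell were Rb1, the retinoblastoma protein that holds back activating E2F factors, its relative Rbl2, and Tfdp2, a dimer partner of E2F factors. Rb1 stood at 522, 471 and 628 CPM in DMSO, 452, 415 and 538 CPM at 1 µM, 205, 209.9 and 258 CPM at 1.5 µM and 61.3, 58.1 and 65.6 CPM at 3 µM. The libraries at 1.5 µM lay below all of those at DMSO and 1 µM, those at 3 µM lay lower still, and culture 3 did not stand apart at 3 µM. The log2 fold change of Rb1 was −1.27 ± 0.14 (SE, adjusted p = 0.000426) at 1.5 µM and −3.13 ± 0.15 (SE, adjusted p = 8.92e-07) at 3 µM. Its exons share 14.9% of their bases with genes on the opposite strand. Rbl2 and Tfdp2 had log2 fold changes of −0.93 and −1.07 at 3 µM, and 21% of Rbl2's exon bases are shared with the opposite strand. The ratio of E2f1 to Rb1 in CPM was 0.0243 ± 0.00756 in DMSO and 0.0267 ± 0.00397 at 1 µM. At the higher doses it was 0.0885 ± 0.00364 (1.5 µM) and 0.413 ± 0.0664 (3 µM). The adipocyte, endothelial and macrophage markers were also lower at 3 µM, with 5 of 5, 6 of 6 and 4 of 5 tested genes called lower. Of the 8 fibroblast genes 0 were called at 3 µM. At 1 µM the median log2 fold change was −1.20 for the adipocyte list and −0.97 for the endothelial list, with 0 genes called. Rb1 averaged 469 CPM at 1 µM against 540 CPM in DMSO. The part of these markers in the fall of Rb1 was not tested.

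**Figure D5:**
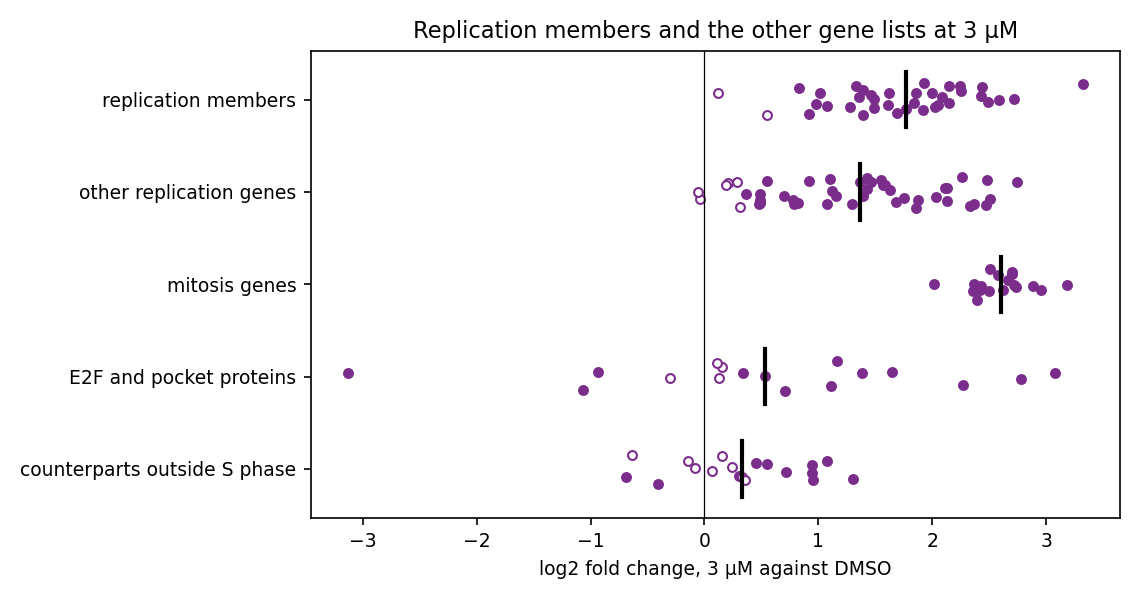
Log2 fold change at 3 µM against DMSO (horizontal axis) of each gene in the replication set and in 4 other lists. Filled points passed an adjusted p of 0.05, open points did not, and black bars are medians, which are 1.77 for the replication set, 1.37 for other replication genes and 2.60 for mitosis genes. The point at −3.13 is Rb1.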

How the data were processed

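Raw read counts per gene in 12 libraries of polyadenylated RNA were deposited by the authors, 1 column per library and not pooled. The submitters' processing notes name TopHat2 2.1, Bowtie 1.1.0, HTSeq and DESeq2 with the builds GRCm38 and mm10. The strand setting, the annotation release and the filters are not given in the sources used here. A second deposited table of log2 scaled values was not used.

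From the counts, edgeR 4.0.16 in R 4.3.3 (limma 3.58.1 loaded) was run with TMM scaling, its filter on low counts, a robust quasi-likelihood fit over all 12 libraries, two-sided tests and Benjamini-Hochberg adjustment over 15316 genes at 0.05. CPM uses the TMM-scaled library size. Differences by culture over all genes used a pseudocount of 0.1 CPM. Level per kilobase uses exon length in GENCODE M21. The fit was tested on simulated data. Replicates differed by more than sampling noise (lowest ratio of chi-square to degrees of freedom 13.8). The main fit has no term for culture. Its p-values set a change against the spread of levels between cultures within a group, and not against how the change varied between cultures.

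Replicate numbers mark the animal, so they pair libraries: deviations of same-numbered libraries correlated at 0.18 to 0.84 (18 pairs). Alternatives were DESeq2 1.42.0, other scalings and filters, the replicate block, fewer groups and libraries left out. Libraries were grouped by their labels. The replication genes and all lists were chosen with earlier results of these data known. Values per library are given for the genes with the largest and smallest change at 3 µM in each role and those not called there, and from other lists for up to 3 genes each way and the named counterparts. Promoter sequences are from RefSeq (GRCm38.p6).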

Additional observations from a re-analysis of the deposited data

How the results depend on the processing

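The number of replication genes called against DMSO at 3 µM stayed between 33 and 36 under all alternatives run, and the slope on dose between 33 and 36. Leaving out libraries or a culture gave 8 to 34 genes at 1.5 µM against DMSO, 0 to 34 for 1.5 against 1 µM and 0 to 31 for 3 against 1.5 µM. Without culture 1, 18 genes were called at 1.5 µM against DMSO, and without culture 2, 8. Over all genes the number called higher at 1.5 µM against DMSO fell as well, from 2364 to 866 and 334. Leaving out a whole culture also leaves fewer samples. With culture as a replicate block, the counts were 0, 33 and 36 at 1, 1.5 and 3 µM, 31 for 1.5 against 1 µM, 23 for 3 against 1.5 µM, 37 for 3 against 1 µM and 35 for the slope. The block changed none of these counts by over 1.5 times. Over all genes, the number called higher with the block rose from 29 to 390 at 1 µM against DMSO. It rose from 2364 to 3420 at 1.5 µM and from 4575 to 5224 at 3 µM against DMSO. For 1.5 against 1 µM it went from 679 to 1737, and for 3 against 1.5 µM from 2601 to 3785. For 3 against 1.5 µM, 5 genes were called with library size alone as scaling, 6 with only the groups compared in the fit, and 9 with the block and library size together. Over all genes 1050, 1656 and 1751 were then called higher, against 2601 in the main fit. Library size alone moved the median of all genes for this comparison to −0.28. The setting with the block and library size together, added after the data were seen, called 1 of the 37 genes at 1 µM, and 872 of all genes. The cause was not tested. At 3 µM against DMSO, library size alone moved the median of all genes to −0.23, with 3395 genes higher and 5404 lower against 4575 and 4239 under TMM. Gins4 changed sign: at 1.5 µM its log2 fold change was −0.0268 with a mean of at least 50 counts and −0.0523 to 0.0762 with libraries left out, and at 3 µM −0.0796 with library size alone and −0.0808 with the block as well.
Fen1, at 4 to 40 counts per library, is the member with the fewest reads behind its values.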

Other observations

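Values at 3 µM are given side by side for subunits of the same complex, picked after their values were seen. Of the origin recognition complex, Orc1 had a log2 fold change of 2.72 ± 0.25 (SE, adjusted p = 1.60e-05), while Orc2 had 0.49 ± 0.16 (SE, adjusted p = 0.0255), Orc5 0.49 ± 0.10 (SE, adjusted p = 0.00240) and Orc3 −0.04 ± 0.09 (SE, adjusted p = 0.758), the last not called. Of polymerase delta, Pold1 and Pold2 rose by 1.62 and 1.30, and Pold3 was at 0.19 ± 0.16 (SE, adjusted p = 0.339) and not called. Of polymerase epsilon, Pole and Pole2 rose by 1.69 and 1.43, and Pole4 was at 0.29 ± 0.13 (SE, adjusted p = 0.0800), which passed with the block (adjusted p = 0.0209). The related helicase genes Mcm8 and Mcm9 had values of 1.57 ± 0.13 (SE, adjusted p = 9.50e-06) and −0.05 ± 0.22 (SE, adjusted p = 0.844). The differences between subunits were not tested.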
